A study of Danio rerio with 8 samples.

Results

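Matrix metalloproteinases (MMPs) and tissue inhibitors of metalloproteinases (TIMPs) were followed in whole zebrafish retinas after a light lesion. The genes are mmp2, mmp9, mmp13a, mmp14a, mmp14b, timp2a and timp2b, and every probe set that the array annotation assigns to them by gene symbol was taken. This gave 9 of 15502 probe sets, which stand for 7 of the 8793 genes named on the array. Each of mmp2 and mmp14a had a brighter and a dimmer probe set, and the other genes had 1 probe set each. The light lesion group (n = 4 arrays) came from albino zebrafish that were adapted to darkness and then kept for 72 h in constant bright light, which destroys photoreceptors. The control group (n = 4 arrays) came from albino zebrafish that were dark adapted in the same way and went back to ordinary lighting. The labels give neither the age of the fish nor whether a sample was a fish or a pool, so the p-values cover no more than the variation among these 8 arrays, part or all of which could be technical. Constant bright light and the lesion it causes cannot be told apart in this design. The series set out to find genes needed for the regeneration of photoreceptors.

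MMPs are zinc-dependent endopeptidases that cut components of the extracellular matrix, cytokines and cell surface proteins. They are made as inactive proenzymes, and TIMPs block the active site of the mature enzymes. In mammals the membrane-anchored MMP14 activates the proenzyme of MMP2 at the cell surface, with TIMP2 serving as the link between them, and an excess of TIMP2 blocks the same reaction. In zebrafish, Müller glia, the radial glia that regenerate retinal neurons, are known to express mmp9 after photoreceptor death.

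All levels are deposited RMA values on the log2 scale. Levels of different probe sets are not read as relative amounts of transcript, because probes differ in brightness. They are set against a background level and used to pick each gene's brightest probe set. For marker genes of cell types they are also summed, where bright probe sets weigh most. The array medians ran from 7.62 to 7.66 in light lesion arrays and from 7.62 to 7.69 in control arrays. The level taken as background was 7.04, the highest of the means of 15 control probe sets for genes of the bacterium Bacillus subtilis, whose means began at 6.02. The samples carried the RNA of neural retina: all 17 measured marker genes of its neurons and glia, out of 21 listed, lay above background in both groups. RNA quality and labelling were read from the GAPDH controls, whose 3′ minus 5′ difference was 0.158 to 0.285 in light lesion arrays and 0.0297 to 0.0774 in control arrays, and its part in the results below was not tested.

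Of the 9 probe sets, 4 rose after the light lesion, 1 fell and 4 did not pass the threshold (limma, Benjamini-Hochberg adjusted p under 0.05 over all probe sets). Over the whole array 40.2% of probe sets passed, 19.5% higher and 20.7% lower. The probe sets that rose belong to mmp9, mmp2 (both of its probe sets) and mmp14b, and the one that fell is the dimmer one of mmp14a. At background in both groups lay 4 of the 9, namely the dimmer one of mmp2, both of mmp14a and that of timp2b. Those of mmp13a, timp2a and timp2b and the brighter one of mmp14a did not pass. On the log2 scale the 9 probe sets had a median change of 0.07, beside -0.04 for all probe sets. The same 5 probe sets were the ones whose light lesion and control arrays did not overlap, a pattern found in 40.0% of all probe sets.

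**Figure D1:**
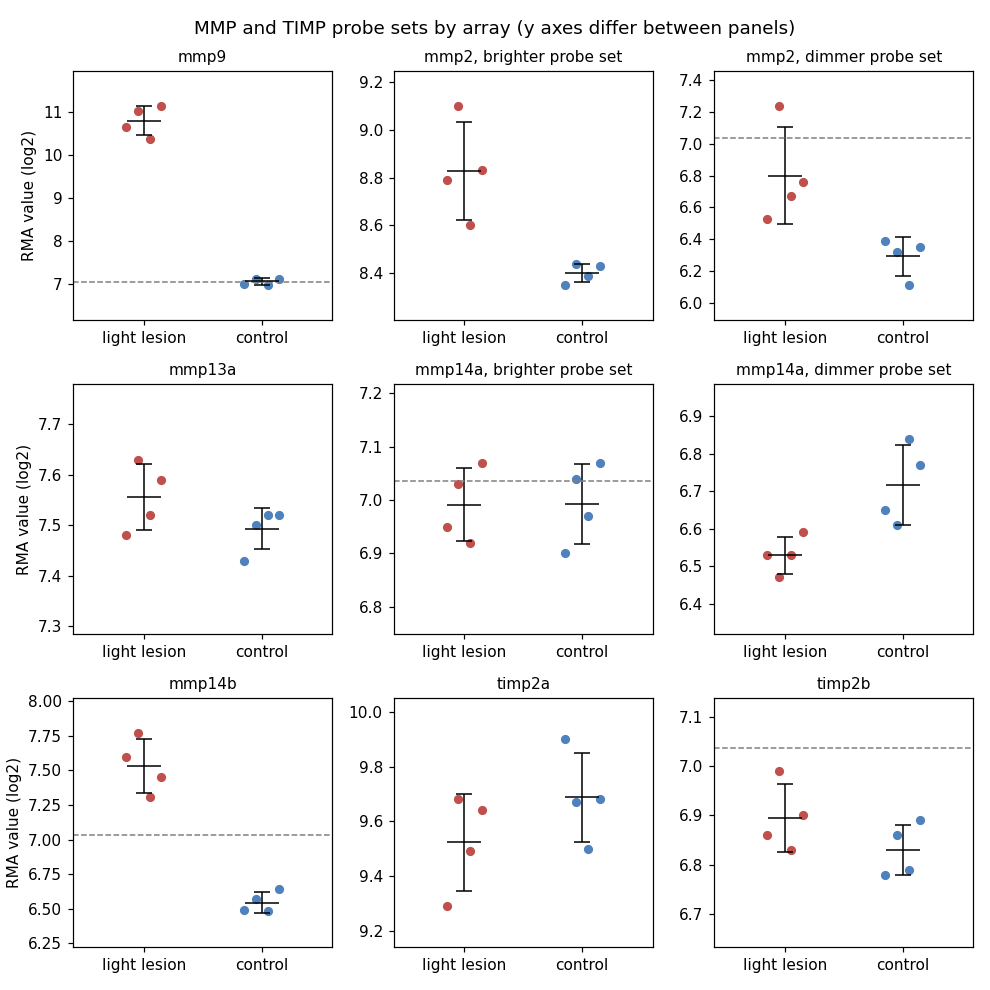
RMA values (log2) of the 9 MMP and TIMP probe sets in 4 light lesion and 4 control arrays. Points are arrays, black bars are the mean and SD, the dashed line is the background level of 7.04 where it lies in range, and the y axes differ between panels. The light lesion arrays stand clear of the control arrays for mmp9 and mmp14b, while mmp13a, timp2a and timp2b overlap.

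The gelatinases mmp9 and mmp2, secreted enzymes that degrade denatured collagen and basement membrane collagen, were both higher after the light lesion, by very different amounts. The mmp9 probe set read 10.66, 11.02, 10.38 and 11.13 in light lesion replicates 1 to 4, against 7.0, 7.12, 6.98 and 7.12 in control replicates 1 to 4. The lowest light lesion array was 3.26 above the highest control array on the log2 scale. The mean was 10.80 ± 0.34 in light lesion arrays and 7.05 ± 0.08 in control arrays (SD, n = 4 each), a 13.4-fold rise with a 95% interval from 10.7-fold to 16.8-fold (log2 fold change 3.74, SE 0.15, limma adjusted p = 1.94e-07). Only 2 of the 4 control arrays read mmp9 above background, so the rise may be understated. Of all probe sets on the array, 0.0129% had a log2 fold change of larger size. Whole-retina RNA cannot tell a changed number of cells of a type from a changed amount of RNA per cell, which holds for all results here.

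The brighter probe set of mmp2 read 8.79, 9.10, 8.60 and 8.83 in light lesion replicates 1 to 4, against 8.35, 8.44, 8.39 and 8.43 in control replicates 1 to 4. All light lesion arrays lay above all control arrays, by 0.160 at the closest. The mean was 8.83 ± 0.20 in light lesion arrays and 8.40 ± 0.04 in control arrays (SD, n = 4 each), a 1.34-fold rise (log2 fold change 0.42, SE 0.09, limma adjusted p = 0.00482). A rise of this size was not unusual on the array, since 20.2% of probe sets had a larger log2 fold change in either direction. The dimmer probe set of mmp2 moved in the same direction, with 6.53, 7.24, 6.67 and 6.76 in light lesion replicates 1 to 4, against 6.39, 6.32, 6.11 and 6.35 in control replicates 1 to 4. Both of its group means lay under background, at 6.80 in light lesion arrays and 6.29 in control arrays, so its call (log2 difference 0.51, limma adjusted p = 0.0155) is given without a fold.

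The change of mmp9 was larger than that of mmp2. Both genes were chosen with earlier results of these data known, so the test below is not independent support. Within each array the difference between the mmp9 probe set and the brighter mmp2 probe set shifted by 3.32 on the log2 scale between the groups (two-sided p = 0.0286 in an exact permutation test, where 4 against 4 arrays allow nothing smaller; adjusted p = 0.0429 over the 3 pairs of genes compared). The light lesion arrays spread more than the control arrays for both genes, with an SD ratio of 4.56 for mmp9 and 5.38 for the brighter mmp2 probe set. The mmp9 control mean of 7.05 lay close to the background of 7.04, and the part of this floor in the mmp9 ratio was not tested.

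The collagenase mmp13a, whose mammalian counterpart cleaves fibrillar collagens, did not pass the test. Its probe set read 7.48, 7.63, 7.52 and 7.59 in light lesion replicates 1 to 4, against 7.43, 7.50, 7.52 and 7.52 in control replicates 1 to 4. The groups overlapped, although every array lay above background. The log2 fold change was 0.06, with a 95% interval from -0.05 to 0.17 (limma adjusted p = 0.342), which corresponds to between 0.968-fold and 1.13-fold.

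The membrane-type genes mmp14a and mmp14b are zebrafish counterparts of mammalian MMP14, a protease anchored in the plasma membrane. The mmp14b probe set read 7.60, 7.77, 7.31 and 7.45 in light lesion replicates 1 to 4, against 6.49, 6.57, 6.48 and 6.64 in control replicates 1 to 4. Every light lesion array was above background and every control array below it, and the closest arrays of the groups were 0.673 apart. The measured mean was 7.53 ± 0.20 in light lesion arrays and 6.54 ± 0.08 in control arrays (SD, n = 4 each), a log2 difference of 0.99 (SE 0.09, limma adjusted p = 2.81e-05). Set against the background level in place of the dim control values, the light lesion mean of mmp14b was 1.41-fold higher. This is an estimate from the mean, and no interval was computed for it.

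Neither probe set of mmp14a rose. The brighter one read 6.95, 7.03, 6.92 and 7.07 in light lesion replicates 1 to 4, against 6.90, 7.04, 6.97 and 7.07 in control replicates 1 to 4. These values overlap throughout, and the 95% interval of the log2 difference ran from -0.13 to 0.12 (limma adjusted p = 0.993). The dimmer one read 6.53, 6.47, 6.53 and 6.59 in light lesion replicates 1 to 4, against 6.65, 6.61, 6.84 and 6.77 in control replicates 1 to 4. It was called lower by the test (log2 difference -0.19, SE 0.06, limma adjusted p = 0.0344), with only 0.0176 between the closest arrays of the groups. That call was lost without control replicate 3 or 4 and without light lesion replicate 1, 2 or 3, where the adjusted p lay between 0.0567 and 0.0973. All group means of mmp14a lay under background, so a change of the transcript could have gone unmeasured and no fold is given.

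The paralogs differed in their measured change. The difference between mmp14a, read at its brighter probe set, and mmp14b shifted by -0.99 on the log2 scale between light lesion and control arrays (exact permutation test, two-sided p = 0.0286, adjusted p = 0.0429 over the 3 pairs). The mmp14a probe set lay at background in both groups, and mmp14b lay there in all control arrays. The size of this shift therefore rests in part on values under background.

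The inhibitors timp2a and timp2b, counterparts of mammalian TIMP2, did not pass the test. The timp2a probe set, well above background, read 9.29, 9.68, 9.49 and 9.64 in light lesion replicates 1 to 4, against 9.90, 9.67, 9.50 and 9.68 in control replicates 1 to 4. The groups overlapped, with control replicate 1 highest and light lesion replicate 1 lowest. The mean was 9.52 ± 0.18 in light lesion arrays and 9.69 ± 0.16 in control arrays (SD, n = 4 each). The log2 fold change was -0.16, with a 95% interval from -0.40 to 0.07 (limma adjusted p = 0.248), or from 0.759-fold to 1.05-fold. It was -0.09 without light lesion replicate 1 or without control replicate 1. Whether the change of timp2a differed from that of any MMP gene was not tested.

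The timp2b probe set read 6.86, 6.99, 6.83 and 6.90 in light lesion replicates 1 to 4, against 6.78, 6.86, 6.79 and 6.89 in control replicates 1 to 4. All 8 values were under background, and the log2 difference was 0.07 with a 95% interval from -0.05 to 0.18 (limma adjusted p = 0.343). The difference between timp2a and timp2b shifted by -0.23 on the log2 scale, which did not pass (exact permutation test, two-sided p = 0.0571, adjusted p = 0.0571 over the 3 pairs), and by -0.14 without control replicate 1.

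**Figure D2:**
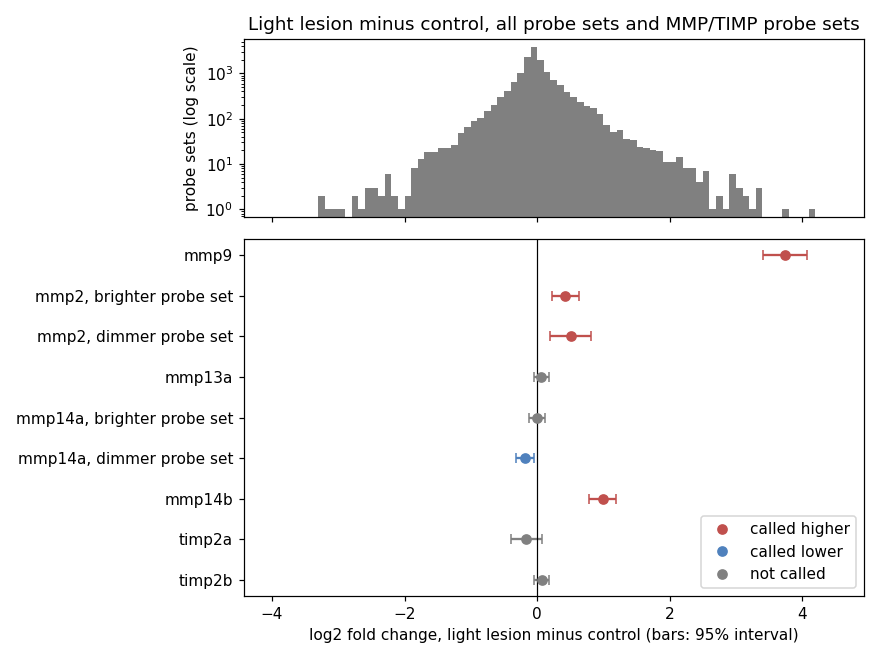
Upper panel, number of probe sets (log scale) by log2 fold change, light lesion minus control, for changes from -4 to 4.5. A larger fall lies outside this range and is not drawn. Lower panel, the 9 MMP and TIMP probe sets with their 95% intervals, coloured by the call; mmp9 at 3.74 lies at the right end of the array's distribution, mmp14b at 0.99 and mmp2 at 0.42 and 0.51 lie to the right of 0, and the remaining intervals lie close to 0 or include it.

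Light lesion replicates differed in how strongly the probe sets moved. Of the 4 probe sets that rose, light lesion replicate 2 was the highest of the light lesion arrays for 3. The other, mmp9, was highest in light lesion replicate 4. Over all 9 probe sets, including those that did not rise, light lesion replicate 2 was highest for 6 and light lesion replicate 4 for 3. For timp2a the highest array moved least from the control mean, by -0.0076 in light lesion replicate 2 against -0.40 in light lesion replicate 1. Light lesion replicate 3 was the lowest for 3 of the 4 probe sets that rose, namely mmp9, mmp14b and the brighter mmp2 probe set. On the whole array, light lesion replicate 2 was the highest of the light lesion arrays for 40.0% of the 3029 probe sets that rose, and light lesion replicate 4 for 18.4%. The lowest was light lesion replicate 1 for 39.0% of them and light lesion replicate 3 for 26.0%. The rise of mmp9 above the control mean was 3.60, 3.97, 3.33 and 4.07 in light lesion replicates 1 to 4.

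Genes whose 8-array profile was most like that of mmp9 were sought among 8141 named genes, as the smallest root mean square difference after subtracting each gene's control mean. The closest was txnb, a thioredoxin, at 0.314 on the log2 scale, followed by the tetraspanin tspan36 at 0.376 and the neural transcription factor sox11b at 0.378. The txnb probe set read 11.25, 11.40, 10.96 and 11.46 in light lesion replicates 1 to 4, against 8.19, 7.74, 7.82 and 7.82 in control replicates 1 to 4. Like mmp9, txnb was lowest in light lesion replicate 3 and highest in light lesion replicate 4. The other genes were also lowest in light lesion replicate 3. However, tspan36 was highest in light lesion replicate 2 (12.17) and sox11b in light lesion replicate 1 (11.49). The order of the arrays is part of what the genes were picked on. The measure takes in the size of the change, and the genes share the same 8 arrays.

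**Figure D3:**
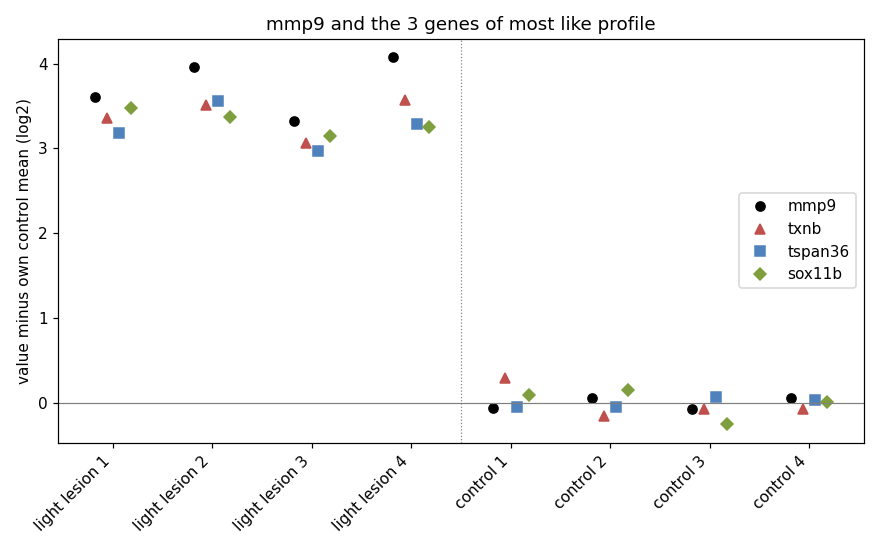
Values minus the gene's own control mean (log2) in each light lesion and control array for mmp9 and the 3 genes of smallest root mean square difference from it (txnb, tspan36, sox11b). In light lesion arrays mmp9 lies between 3.33 and 4.07 above its control mean, and the other genes lie lower than mmp9 in each of these arrays.

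Further genes of pericellular proteolysis were read at their brightest probe set, beside 24.4% of all genes called higher and 20.1% called lower. Of 26 other listed MMPs and inhibitors 2 were measured under an unambiguous symbol. The stromelysin-3 gene mmp11b rose, with 10.43, 10.59, 10.45 and 10.53 in light lesion replicates 1 to 4, against 9.86, 9.82, 9.83 and 9.90 in control replicates 1 to 4. This is a 1.57-fold rise without overlap between the groups (log2 fold change 0.65, SE 0.05, limma adjusted p = 8.16e-06). The membrane-type gene mmp17b lay at background in both groups and did not pass (limma adjusted p = 0.137).

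Of 37 listed ADAM and ADAMTS proteases, membrane-anchored sheddases and secreted matrix proteases, 6 were measured, all of them ADAMs, and 1 was called higher and 2 lower. Their median log2 fold change was -0.05, beside -0.03 for all genes. The neural, catalytically inactive family member adam23a fell by 0.42 on the log2 scale (limma adjusted p = 0.00896). The sheddase adam10b was 0.13 higher (limma adjusted p = 0.0339) and adam19b, at background, 0.19 lower (limma adjusted p = 0.0205, log2 fold change -0.19). The call of adam10b was lost with the replicate block, a second quantile normalization, a trended and robust variance prior and a filter on dim probe sets (limma adjusted p from 0.0696 to 0.121), and also without control replicate 1 or 2 and without light lesion replicate 2, 3 or 4, and that of adam19b with the replicate block (limma adjusted p = 0.0613), without control replicate 2 and without light lesion replicate 2 or 3. The list's count was 1 without control replicate 2 and without light lesion replicate 2 or 3.

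Of 33 listed genes of the plasminogen system and pericellular proteolysis, 14 were measured, of which 4 rose, 1 was called lower and 9 did not pass. Of all genes 24.4% were called higher and 20.1% lower. The list median was -0.0022 on the log2 scale, and 5 of the 14 lay at background in both groups. The plasminogen gene plg, with a light lesion mean under background, did not pass (limma adjusted p = 0.339). Nor did the plasminogen activator gene plaua, at background in both groups (limma adjusted p = 0.887). The annexin anxa2a and its partner s100a10b, which form a cell surface receptor for plasminogen in mammals, rose by 2.27 (SE 0.18, limma adjusted p = 1.14e-05) and by 0.77 (SE 0.12, limma adjusted p = 7.50e-04). The protease inhibitor serpine2, protease nexin-1 in mammals, rose by 0.70 (limma adjusted p = 0.00606). The other gene that rose was the collagen-degrading cathepsin ctsk (0.61, limma adjusted p = 0.00787), and the gene called lower was the proprotein convertase furinb (-0.20, limma adjusted p = 0.0385), whose groups overlap; both were picked out after their values were seen. The furinb call was lost with the replicate block (limma adjusted p = 0.0609), with the trended and robust prior (limma adjusted p = 0.0602), without control replicate 2, 3 or 4 and without light lesion replicate 1, 2 or 3. Its paralog furina did not pass, nor did bsg, whose mammalian product induces MMPs (limma adjusted p = 0.516 and 0.860).

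Of 59 listed matrix and basement membrane genes, among them MMP substrates, 26 were measured, of which 5 rose, 1 fell and 20 did not pass. Their median was 0.02 on the log2 scale, and of all genes 24.4% were called higher and 20.1% lower. At background in both groups lay 11 of the 26. The genes that rose most were col18a1a, a basement membrane collagen (log2 fold change 0.85, SE 0.06, limma adjusted p = 7.65e-06), and the fibrillar and fibril-associated collagens col2a1a (0.81) and col9a2 (0.60). Also higher, and picked out after their values were seen, were the matrix-binding glycoprotein sparc (0.53) and the collagen col15a1a (0.26). The glycoprotein tnr, tenascin-R of the neural matrix, fell by 1.14 on the log2 scale (SE 0.21, limma adjusted p = 0.00203), with 7.13, 7.46, 7.20 and 7.39 in light lesion replicates 1 to 4, against 8.73, 8.96, 7.87 and 8.19 in control replicates 1 to 4.

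Factors of the AP-1, NF-kB and Ets families and the signal transducer stat3 are known to act on MMP promoters in mammals. Of 22 listed 15 were measured, and 8 rose, 2 fell and 5 did not pass, beside 24.4% of all genes called higher and 20.1% lower. Their median was 0.44 on the log2 scale. At their brightest probe sets the AP-1 related genes atf3 (2.92), jun (2.34) and fosab (1.83) rose most. The other fosab probe sets rose less, by 1.23, 0.79 and 0.64 on the log2 scale, which is under the rise of junbb (1.65). The Ets genes etv5b (-2.56) and etv5a (-0.51) fell, while the Ets gene etv4 rose (0.44, limma adjusted p = 0.00316). Neither ets1 (-0.04) nor ets2 (-0.11) passed. Whether any of them acts on the MMP genes here was not tested.

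**Figure D4:**
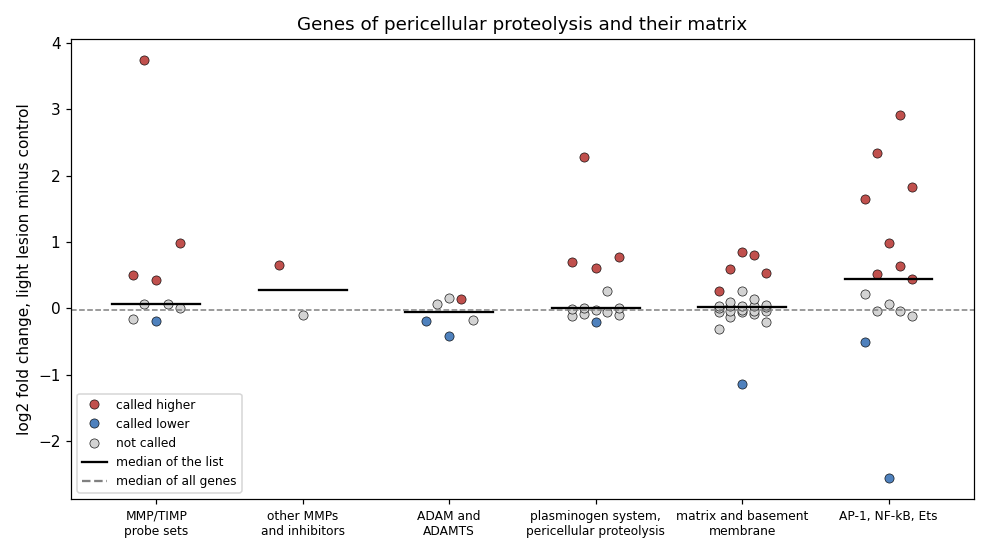
Log2 fold change, light lesion minus control, of the 9 MMP and TIMP probe sets and of the genes of 5 lists at their brightest probe set. Points are coloured by the limma call, black lines are list medians (0.07 for the MMP and TIMP probe sets) and the dashed line is the median of all genes (-0.03); mmp9 at 3.74 is the highest point plotted and etv5b at -2.56 the lowest.

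Markers of cell types that a dissected retina can hold were read in the same arrays, again beside 24.4% of all genes called higher and 20.1% called lower. Of 28 listed microglia and leukocyte markers 13 were measured and 12 rose, with 1 not passing. The rises ran from 0.16 on the log2 scale for spi1b (limma adjusted p = 0.0462) to 1.97 for laptm5, with a list median of 0.72. In control arrays 4 of the 13 lay at background, ptprc among them, and 1 lay there in both groups. The log2 of the summed signal of these markers was 13.24, 13.53, 13.36 and 13.60 in light lesion replicates 1 to 4, against 12.73, 12.67, 12.63 and 12.62 in control replicates 1 to 4. The brightest of them in both groups, cd74a, had a mean of 11.93 in light lesion arrays and 11.61 in control arrays, and it weighs most in this sum. Of 3 measured neutrophil markers lyz rose (0.63) and mpx, the myeloperoxidase gene (-0.19, limma adjusted p = 0.330), and ncf1, at background in both groups, did not pass. The log2 of their summed signal was 8.82 to 9.12 in light lesion arrays and 8.49 to 8.99 in control arrays.

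Among fibroblast and connective tissue markers 2 of 7 measured rose, dcn and sparc, and 3 lay at background in both groups. The median log2 fold change of the 7 was 0.03. Their summed signal on the log2 scale was 11.68 to 12.07 in light lesion arrays and 11.38 to 11.55 in control arrays. Most of this sum was sparc, with a mean of 11.52 in light lesion arrays and 10.99 in control arrays. None of 8 measured endothelial markers passed, with a summed signal of 9.89 to 9.95 in light lesion arrays and 9.88 to 10.06 in control arrays, and 5 of them lay at background in both groups. Pigment epithelium and pigment cell markers rose in 4 of 7 measured genes, from 0.58 on the log2 scale for rpe65a to 3.25 for tspan36. The list median was 0.58, and 2 of the 7 lay at background in both groups. Their summed signal (log2) was 14.84 to 14.99 in light lesion arrays and 13.97 to 14.03 in control arrays. The brightest of them in both groups, rpe65a, had a mean of 14.10 in light lesion arrays and 13.52 in control arrays, and it weighs most in this sum. Corneal and skin epithelium markers were called higher in 5 of 16 measured genes and lower in 2, and 11 of the 16 lay at background in both groups. Their median log2 fold change was 0.02. Their summed signal was 13.01 to 13.42 in light lesion arrays and 11.80 to 11.87 in control arrays. The brightest of them in both groups, icn, had a mean of 12.75 in light lesion arrays and 10.72 in control arrays, and it weighs most in this sum. Müller glia markers rose in 5 of 12 measured genes and fell in 3, with a summed signal of 15.69 to 15.79 in light lesion arrays and 15.43 to 15.50 in control arrays. Their median log2 fold change was 0.11. The gene fabp7a, with a mean of 13.44 in light lesion arrays and 11.20 in control arrays, weighs most in the rise of this sum. Those that fell were glula (-0.21), aqp1a.1 (-0.41) and cahz (-0.64). Of 17 neural retina markers 14 fell and none rose, with a summed signal of 15.91 to 16.05 in light lesion arrays and 16.78 to 16.86 in control arrays. The part of these cell types in the MMP values was not tested.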

How the data were processed

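The file holds log2 values that the authors deposited, 1 for each probe set on each array. RMA is named in the submitters' processing notes. Neither the RMA version nor the log base was given in the sources used here, and log2 was read from the range of values (5.47 to 14.89). The sample titles gave the groups and the replicate numbers. Of 15617 probe sets, 115 AFFX controls were left out. The array annotation gave 1 symbol for 10795 probe sets, several for 135 and none for 4572, and 1 symbol was updated through the RefSeq gene table. A listed gene was read at its probe set of highest mean.

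The groups were compared in limma 3.58.1 (R 4.3.3; eBayes on a fit with the group alone, unfiltered, two-sided). P-values were adjusted by Benjamini-Hochberg over 15502 probe sets, and the fit was checked on simulated arrays. Intervals are limma's 95% intervals. Log2 fold changes are light lesion minus control. Differences between the changes of 2 genes were tested by exact permutation (70 ways to assign the arrays). From each list up to 3 of the highest and 2 of the lowest called genes without overlap between groups were named by rule. Further list genes, called or not, were named outside this rule. The genes and lists were chosen with earlier results of these data known, and the pairs of genes compared were formed from the chosen genes. The number of arrays limits the precision. Alternatives were the replicate block, 2 further scalings, a filter on dim probe sets, another variance prior, array weights, a threshold of 0.01, averaged probe sets and leaving out each array.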

Additional observations from a re-analysis of the deposited data

How the results depend on the processing

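The calls of mmp9 (log2 fold change 3.63 to 3.88), mmp14b (0.91 to 1.06) and the brighter mmp2 probe set (0.33 to 0.50) held in all alternatives run, and mmp13a, timp2a and timp2b passed in none. The dimmer mmp2 probe set (0.51) did not pass a threshold of 0.01. The brighter mmp14a probe set, not called in any, turned positive with median centring (0.0060) and a second quantile normalization (0.0256), and ran from -0.0318 to 0.0242 when 1 array was left out. The dimmer mmp14a probe set (-0.19) did not pass a threshold of 0.01 and ran from -0.22 to -0.15 when 1 array was left out. The shift of timp2a minus timp2b passed after the second quantile normalization (-0.30, adjusted p = 0.0286). Called ADAM genes numbered 1 with the replicate block, without dim probe sets and at a threshold of 0.01, and 1 to 4 when 1 array was left out. The causes were not tested. Over all probe sets 4395 to 7101 were called. Same-numbered light lesion and control replicates did not deviate together (correlations -0.21, 0.28, -0.24 and 0.17), and with the replicate block 5638 were called and no MMP or TIMP call changed. For differences between 2 genes neither signs within replicate numbers (smallest p 0.125) nor 3 against 4 arrays (0.0571) can pass, so only their values were compared. Probe sets under background were not tested in the filter on dim ones.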
